A study of Homo sapiens with 13 samples.

Results

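The cytosolic ribosomal protein genes are the protein-coding genes whose symbols are RPL, RPS or RPLP and a number, with or without a closing letter such as A or X, together with RPSA. The symbol rule found 77 of the 45744 genes in the count table, of which 43 encode large subunit proteins, 31 small subunit proteins and 3 proteins of the P stalk of the large subunit. The rule uses symbol and gene type, and no measured value. Transcripts were counted by RNA sequencing in HuT78, an established line of malignant T cells from Sézary syndrome. The groups were chaetocin at 10 nM (4 libraries, replicates 1 to 4), F5446 at 10 nM (3 libraries, replicates 2 to 4), romidepsin at 1 µM (4 libraries, replicates 1 to 4) and the vehicle DMSO (2 libraries, replicates 1 and 4). All cells were exposed for 72 h, and the labels name no further agent or allele. Chaetocin and F5446 inhibit the histone methyltransferase SUV39H1, and romidepsin inhibits histone deacetylases. The dose of romidepsin differs from the 10 nM of the other compounds, so differences between romidepsin and those compounds are also differences of dose. All groups come from a single cell line, and nothing in the labels tells separate cultures from repeat libraries, so each p-value measures only the spread between these libraries, which may be technical. Of the 77 genes, 76 had enough counts to be tested among 17252 genes.

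Each ribosome holds a single copy of nearly every ribosomal protein, with ribosomal RNA as its catalytic core, and the proteins are needed in matched amounts. Their messenger RNAs are among the most abundant in growing cells, and most begin with a C followed by an unbroken run of pyrimidines, the terminal oligopyrimidine (TOP) motif, through which the mTORC1 kinase and the protein LARP1 control their translation. Growing T cells, leukemic lines included, make ribosomes at a high rate, and some ribosomal proteins that are not in a ribosome bind MDM2 and so raise p53.

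A feature that these genes share outside the symbol rule is the sequence at the start of transcription. RefSeq start sites (GRCh38.p14) were matched by symbol for 62 of the 77 genes. At 46 of the 62 (74.2%) at least 1 listed start was a C followed by at least 4 further C or T bases, against 1404 of 27305 genes of the same table (5.14%). In those starts the unbroken C and T run measured 5 to 19 bases, with a median of 8. The sequences shown belong to the genes that the results below turn on, namely those that differed between replicate numbers (RPL22, RPL28, RPLP2 and RPS4X) and several of those with the smallest p-values between treatments. RPL7, RPL8 and RPS2, also among these, are not shown. Each run covers 10 bases before the start and the first 20 transcribed bases, 5′ to 3′, with the pyrimidine run at the start in capitals.
RPL22 (chr1:6199576-6199605, minus strand): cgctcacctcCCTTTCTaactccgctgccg
RPL28 (chr19:55385922-55385951, plus strand): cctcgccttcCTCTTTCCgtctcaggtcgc
RPLP2 (chr11:809957-809986, plus strand): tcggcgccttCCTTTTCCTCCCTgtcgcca
RPS4X (chrX:72277229-72277258, minus strand): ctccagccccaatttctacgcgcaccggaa
RPS14 (chr5:150449720-150449749, minus strand): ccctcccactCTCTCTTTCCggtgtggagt
RPL39 (chrX:119791611-119791640, minus strand): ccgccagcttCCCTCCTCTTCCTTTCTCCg
RPLP0 (chr12:120201092-120201121, minus strand): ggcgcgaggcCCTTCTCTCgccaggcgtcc
RPL10 (chrX:154398367-154398396, plus strand): ggaggagcgcCTCTTTCCCTTCggtgtggt
RPL35A (chr3:197950180-197950209, plus strand): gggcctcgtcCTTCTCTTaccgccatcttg
RPLP1 (chr15:69452808-69452837, plus strand): ggcgcgagagCCCCTTTCCTCagctgccgc
RPL39, whose product lines the exit tunnel for the growing peptide, had the longest run of the 62 genes with 19 bases. The listed start of RPS4X, a small subunit protein encoded on the X chromosome, begins with A and so has no capitals. RPL10 has 3 listed starts, and the one printed is the one that begins with the run. In the 300 bases around the start, from 250 before to 50 after, the letters CCGGAA, the core that ETS family factors bind, were found on either strand for 35 of 62 genes (56.5%), against 20.1% of all genes in the table. The letters TATAAA, the core of the TATA box, were found for 5 of 62 (8.06%), against 14.0%. These windows describe letters and not binding.

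Levels of the list were high and differed widely between its members. The values below are CPM, the counts of a gene as a rate of its library's total after TMM factors have corrected that total for composition. Of the 76 genes tested, 29 averaged over 1000 CPM and 73 over 50 CPM. Among the highest means over the 13 libraries were those of RPS18 (2434 CPM), RPS4X (2324 CPM), RPS23 (2141 CPM), RPL5 (2041 CPM) and RPL28 (2022 CPM). RPS23 sits at the decoding centre of the small subunit, and RPL5 binds the 5S ribosomal RNA in the large one. RPL8, next to the peptidyl transferase centre, RPL37A and RPL4, which reaches into the exit tunnel, were also among the 10 most abundant with 1857, 1729 and 1711 CPM. Per kilobase of coding sequence, the median level of the 76 was 1629.6 CPM per kilobase and 69 lay within 4-fold of it. This length leaves out untranslated bases, while the counts are per gene. Genes with little coding sequence can therefore be placed too high, and the scale compares genes only roughly. RPL37A, with 276 coding bases, was highest at 6266 CPM per kilobase, and RPL41, the shortest ribosomal protein with 75 coding bases, reached 4446. RPL41 ranked 6 on this scale but 65 by CPM. RPL4, with 1281 coding bases the longest, was at 1335 CPM per kilobase.

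At the low end, RPL17 averaged 5.17 CPM, RPS10 2.42 CPM and RPL36A 1.13 CPM, far under the next gene, RPL39 at 57.5 CPM. RPL17 lines the exit tunnel, and RPS10 is one of the genes mutated in Diamond-Blackfan anaemia. The count table also lists the read-through genes RPL17-C18orf32, RPS10-NUDT3 and RPL36A-HNRNPH2, which share exons with these genes, and each of them had 0 counts in all 13 libraries. Reads from such shared exons cannot be told apart in this table. Of 50 pseudogenes of ribosomal protein genes in the table, RPL6P27 held the most counts (202 CPM on average) and RPS27AP16 the next most (59.6 CPM). Values of RPL6, RPS27A and other genes with such copies are therefore uncertain where a read could come from either copy.

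Summed over the 77 genes, ribosomal protein messages took 5.98, 6.79, 8.02 and 7.95% of all counts in the chaetocin libraries. They took 8.41, 6.85 and 6.91% in the F5446 libraries, 5.80, 6.88, 7.35 and 6.81% in the romidepsin libraries, and 7.25 and 6.50% in the DMSO libraries. The means and SDs over the 4, 3, 4 and 2 libraries were 7.18 ± 0.98% with chaetocin, 7.39 ± 0.885% with F5446, 6.71 ± 0.652% with romidepsin and 6.88 ± 0.529% with DMSO. All groups overlapped, and the means lay closer together than the libraries within the chaetocin group. Mitochondrially encoded protein-coding genes share the same total. They took 5.81 to 15.4% with chaetocin, 5.03 to 8.49% with F5446, 5.48 to 12.4% with romidepsin and 6.72 to 11.5% with DMSO. Library totals lay between 19901052 and 30816188 counts. The summed CPM of the large subunit genes was 1.40 ± 0.0556 times that of the small subunit genes with chaetocin, 1.38 ± 0.0871 times with F5446, 1.38 ± 0.0435 times with romidepsin and 1.39 ± 0.122 times with DMSO (SD over the same libraries). In bulk RNA, fewer cells and less RNA per cell cannot be told apart. T cell markers (CD3D, CD3E, CD3G, CD4, CD2, PTPRC and LCK) were all above 1 CPM, with summed levels of 941 to 1397 CPM with chaetocin, 1229 to 1390.2 with F5446, 1126 to 1484 with romidepsin and 1092 to 1239 with DMSO. The erythroid markers HBB, HBA1 and HBA2 were at 0 counts in every library, and the 5 monocyte markers summed to at most 2.69 CPM. Summed B cell markers ran from 40.7 to 93.0 CPM over all libraries, fibroblast markers from 29.3 to 54.3 CPM and epithelial markers from 80.3 to 135 CPM.

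**Figure D1:**
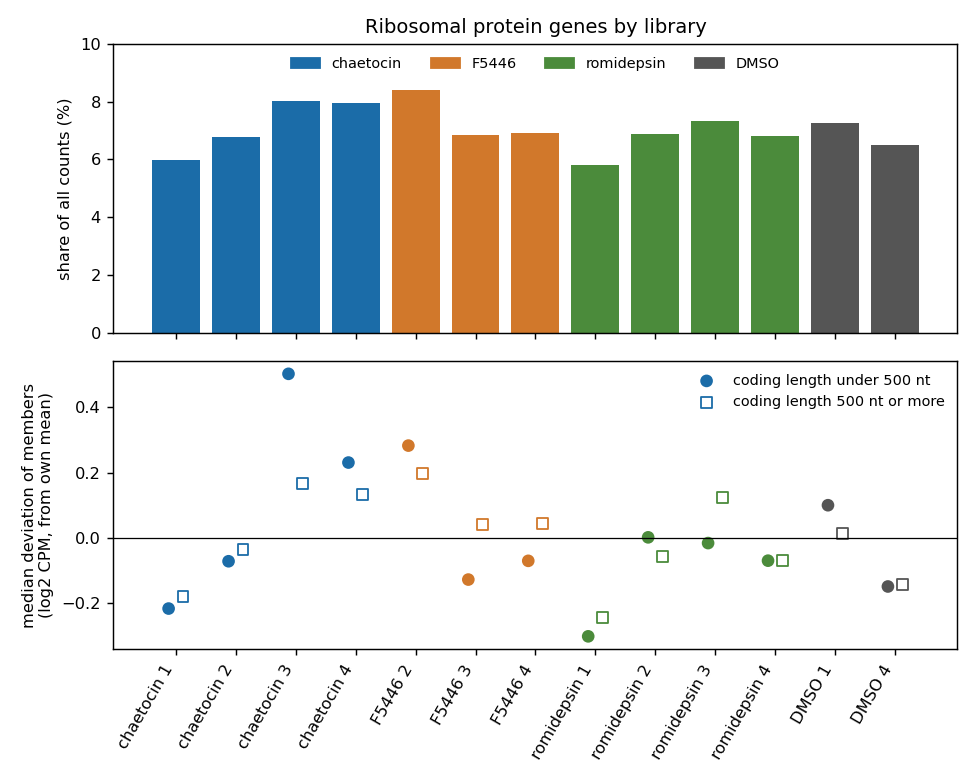
Ribosomal protein genes in each library, coloured by treatment. The upper bars give their share of all counts in percent, and the lower points the median deviation of log2 CPM from each gene's own mean over the 13 libraries, for genes with coding lengths under 500 nt (filled circles) and of 500 nt or more (open squares). Chaetocin 3 is highest for the shorter genes at 0.50, and romidepsin 1 is lowest for both classes.

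One library stood apart. In chaetocin replicate 3 the median gene of the list was 0.40 above its own mean on the log2 scale, and 46 of the 76 genes had their highest value there. F5446 replicate 2 was the highest library for 14 more genes (median deviation 0.23). The lowest library was romidepsin replicate 1 for 31 genes (median deviation -0.27), chaetocin replicate 1 for 16 and DMSO replicate 4 for 14. The excess in chaetocin replicate 3 was uneven. Genes with under 500 coding bases had a median deviation of 0.50 there, and the longer ones 0.17. RPS21, with 249 coding bases, was at 1491 CPM in that library against 532 to 1269 CPM in the other 12, and RPS23 was at 4242 CPM against 1469 to 2523 CPM. RPL10, RPLP0 and RPL4 were instead at their lowest in it. RPL10, a protein that joins the large subunit late and is mutated in some T cell leukaemias, was at 636 CPM there against 875 to 1390.3 CPM in the others. Other protein-coding genes with under 500 coding bases and at least 50 CPM (324 genes) were also raised in this library, with a median deviation of 0.27, and its mitochondrial share was the largest at 15.4%. It also had the fewest genes with a count, 16085 against 17405 to 21185 in the other 12 libraries, and a TMM factor of 0.859 against 0.990 to 1.04, which by its construction scales its CPM up. The part of these values in the results was not tested, and the median of each comparison with chaetocin is also given without this library.

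**Figure D2:**
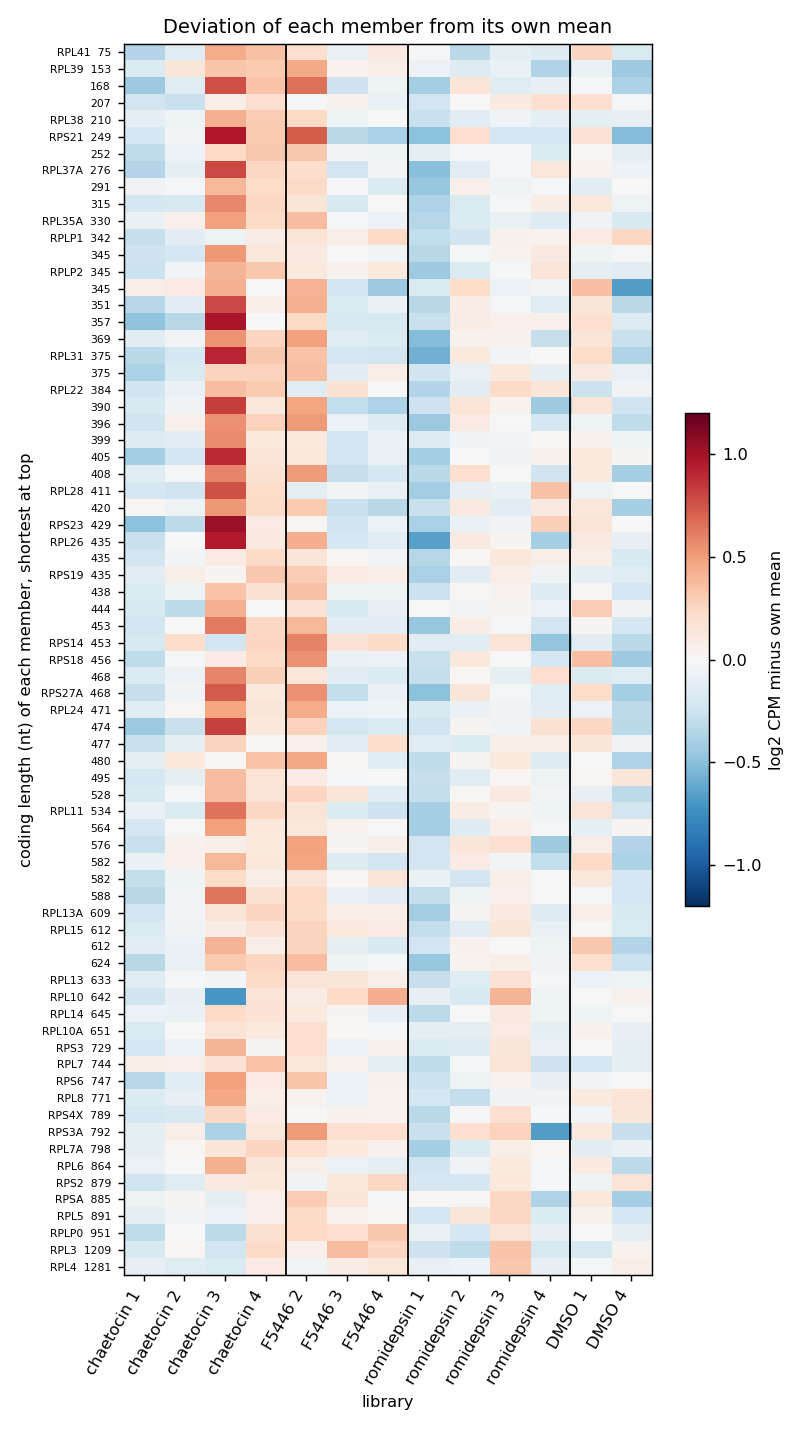
Deviation of log2 CPM from each gene's own mean, for the 73 ribosomal protein genes that average over 50 CPM (rows, shortest coding length at the top) in the 13 libraries (columns, vertical lines between treatments). Red is above and blue below the mean. Rows of genes named among the results carry their symbols. The chaetocin 3 column is red for most short genes and blue for RPL10, and F5446 2 is the next reddest.

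Between treatments, no ribosomal protein gene passed the test. By edgeR's quasi-likelihood test with Benjamini-Hochberg adjustment over all 17252 genes, 0 of 76 were called in each of the 6 comparisons, and 0 of 76 when any difference among the 4 groups was asked for. Over all genes tested, 0% were called in chaetocin, F5446 or romidepsin against DMSO, in chaetocin against F5446 and in romidepsin against F5446. In romidepsin against chaetocin 0.0927% of all genes were called, and 0.0232% for any difference. DESeq2 and limma-voom also called 0 of the 76 in each. The comparisons of chaetocin, F5446 and romidepsin with DMSO share its 2 libraries, so their values are not independent. At an unadjusted p under 0.05 the list had 2 genes in chaetocin against DMSO (4.07% of all genes), 2 in F5446 against DMSO (2.48%), 0 in romidepsin against DMSO (2.82%), 2 in chaetocin against F5446 (3.4%), 4 in romidepsin against chaetocin (5.44%), 4 in romidepsin against F5446 (2.46%) and 3 for any difference (3.15%). The 95% confidence intervals stayed within a 2-fold change either way for 71 of the 76 in chaetocin and F5446 against DMSO, for 73 in romidepsin against DMSO, and for 72 or 73 between compounds. They stayed within 1.5-fold for 39 of 76 in chaetocin, 43 of 76 in F5446 and 59 of 76 in romidepsin against DMSO, and for the rest a 1.5-fold difference lay inside the interval.

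**Figure D3:**
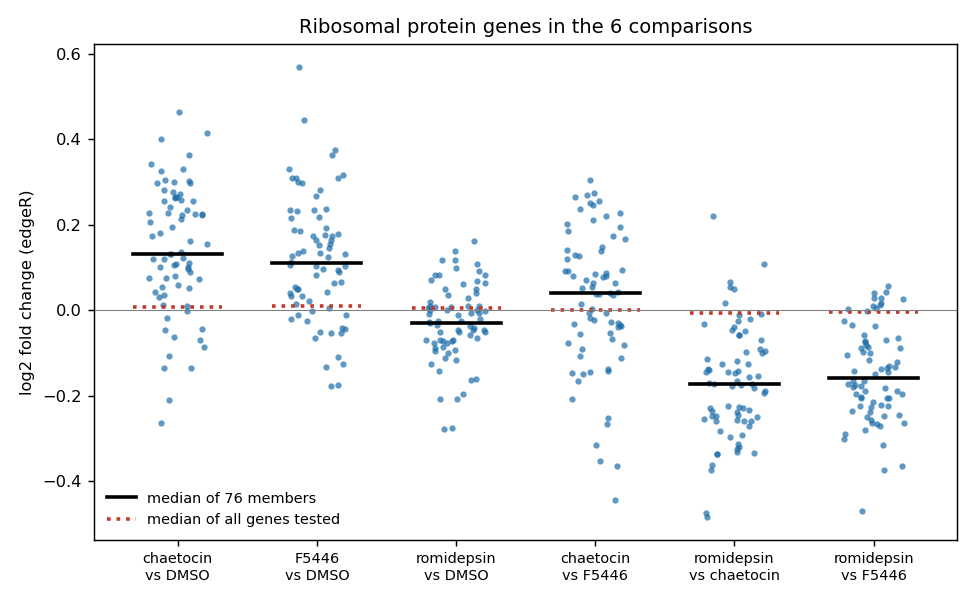
Log2 fold changes of the 73 ribosomal protein genes over 50 CPM in the 6 comparisons, 1 point per gene. Black bars give the median over the 76 genes tested and red dotted bars the median over all 17252 genes. The medians lie at 0.13, 0.11 and -0.03 against DMSO, and at 0.04, -0.17 and -0.16 between compounds.

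Chaetocin against DMSO asks what the methyltransferase inhibitor does to these messages. The median log2 fold change of the 76 genes was 0.13, beside 0.01 over all genes, and 61 of 76 were above 0 (51% of all genes). It was 0.22 for genes with under 500 coding bases and 0.08 for longer ones. Without chaetocin replicate 3 the median was 0.03 and without DMSO replicate 4 it was 0.05, whereas it was 0.26 without DMSO replicate 1 and 0.25 and 0.20 without chaetocin replicates 1 and 2. With the replicate number as a block it was 0.02. It was -0.19 within replicate numbers 1 and 2 and 0.42 within 3 and 4, where DMSO has a single library each. RPL39 was at 50.6, 62.4, 71.4 and 70.2 CPM with chaetocin and at 53.6 and 41.9 CPM with DMSO. The groups overlapped, with chaetocin replicate 1 under the higher DMSO library. The log2 fold change was 0.41 (SE 0.18, 95% CI 0.05 to 0.78, unadjusted p = 0.0287, edgeR adjusted p = 1), and 0.07 within replicate numbers 1 and 2 and 0.76 within 3 and 4. RPL7, a large subunit protein, was at 640.3, 632, 681 and 769 CPM with chaetocin and at 524 and 562 CPM with DMSO. All chaetocin libraries lay above both DMSO libraries, the only gene of the 76 of which this was so (1.32%, beside 5.22% of all genes). Its log2 fold change was 0.33 (SE 0.15, 95% CI 0.01 to 0.64, unadjusted p = 0.0427, edgeR adjusted p = 1). In RPLP1, a P stalk protein that helps recruit elongation factors, all chaetocin libraries lay below DMSO, with 440.5, 489, 511 and 569 CPM against 572 and 634 CPM (1 of 76 genes, beside 6.09% of all). RPL24, which forms a bridge to the small subunit, came out at 0.33 on the log2 scale with an interval of -0.03 to 0.70, and at 0.01 within replicate numbers 1 and 2 and 0.63 within 3 and 4.

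F5446 against DMSO gave a median of 0.11, beside 0.01 over all genes, with 57 of 76 above 0 (51.2% of all genes). The median was 0.18 within replicate numbers 1 and 2 and 0.14 within 3 and 4, each with a single DMSO library. Leaving out F5446 replicate 2 gave -0.00 and leaving out DMSO replicate 4 gave 0.03, whereas it was 0.23 without DMSO replicate 1 and 0.18 and 0.17 without F5446 replicates 3 and 4. With the replicate number as a block its sign turned, to -0.06. In 14 of the 76 genes (18.4%) all 3 F5446 libraries lay above both DMSO libraries, beside 9.44% of all genes, and in 1, RPL8, all lay below (9.12% of all). The 14 were RPLP0, RPLP2, RPL3, RPL7, RPL7A, RPL10, RPL13, RPL15, RPL24, RPL38, RPL39, RPS3A, RPS14 and RPS19. RPS14, the small subunit gene whose loss marks the 5q- form of myelodysplastic syndrome, had the smallest p. It was at 670.5, 502 and 520.1 CPM with F5446 and at 406 and 354 CPM with DMSO. The lowest F5446 library stood above the highest DMSO library, and F5446 replicate 2 was far above both others. The log2 fold change was 0.57 (SE 0.19, 95% CI 0.17 to 0.97, unadjusted p = 0.00737, edgeR adjusted p = 1). RPL39 was at 77.4, 58.2 and 59.4 CPM with F5446, all above both DMSO libraries, and the log2 fold change was 0.45 (SE 0.19, 95% CI 0.06 to 0.83, unadjusted p = 0.0253, edgeR adjusted p = 1). RPLP0, the P stalk base that anchors RPLP1 and RPLP2, was at 1106, 1083 and 1176 CPM with F5446 and at 943 and 867 CPM with DMSO. Its F5446 libraries were close together, and its log2 fold change was 0.31 (SE 0.16, 95% CI -0.03 to 0.65, unadjusted p = 0.0735, edgeR adjusted p = 1). RPS19, the gene most often mutated in Diamond-Blackfan anaemia, was at 969.8, 846 and 835 CPM with F5446 and at 735 and 719 CPM with DMSO, and its log2 fold change of 0.28 had an interval of -0.06 to 0.62.

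Romidepsin against DMSO gave a median of -0.03, beside 0.01 over all genes, with 28 of 76 above 0 (51% of all genes). It was -0.20 within replicate numbers 1 and 2 and 0.15 within 3 and 4, and it changed sign without DMSO replicate 1 (0.08) and without romidepsin replicate 1 (0.05). It was -0.13 without DMSO replicate 4, -0.08 and -0.05 without romidepsin replicates 3 and 2, and -0.12 with the replicate block. The spread between genes was narrow, with the quartiles of the 76 between -0.08 and 0.02. In 0 genes did all romidepsin libraries lie above DMSO (5.34% of all genes), and in 3 of 76 (3.95%) all lay below (4.98% of all). These were RPS10, RPLP1 and RPL8, which also had the smallest p-values. RPLP1 was at 436, 454, 553 and 549 CPM with romidepsin and at 572 and 634 CPM with DMSO. Romidepsin replicates 3 and 4 came close to the lower DMSO library, and the log2 fold change was -0.28 (SE 0.14, 95% CI -0.57 to 0.02, unadjusted p = 0.0678, edgeR adjusted p = 1). RPL8 was at 1589, 1511, 1792 and 1793 CPM with romidepsin and at 1998 and 2057 CPM with DMSO, and the log2 fold change was -0.28 (SE 0.16, 95% CI -0.61 to 0.06, unadjusted p = 0.0993, edgeR adjusted p = 1). RPS10 was at 1.88, 2.35, 1.17 and 0.649 CPM with romidepsin and at 3.93 and 3.19 CPM with DMSO. These are the levels of a gene with 714 counts over all libraries, and the log2 fold change of -1.24 had a 95% CI of -2.56 to 0.09.

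**Figure D4:**
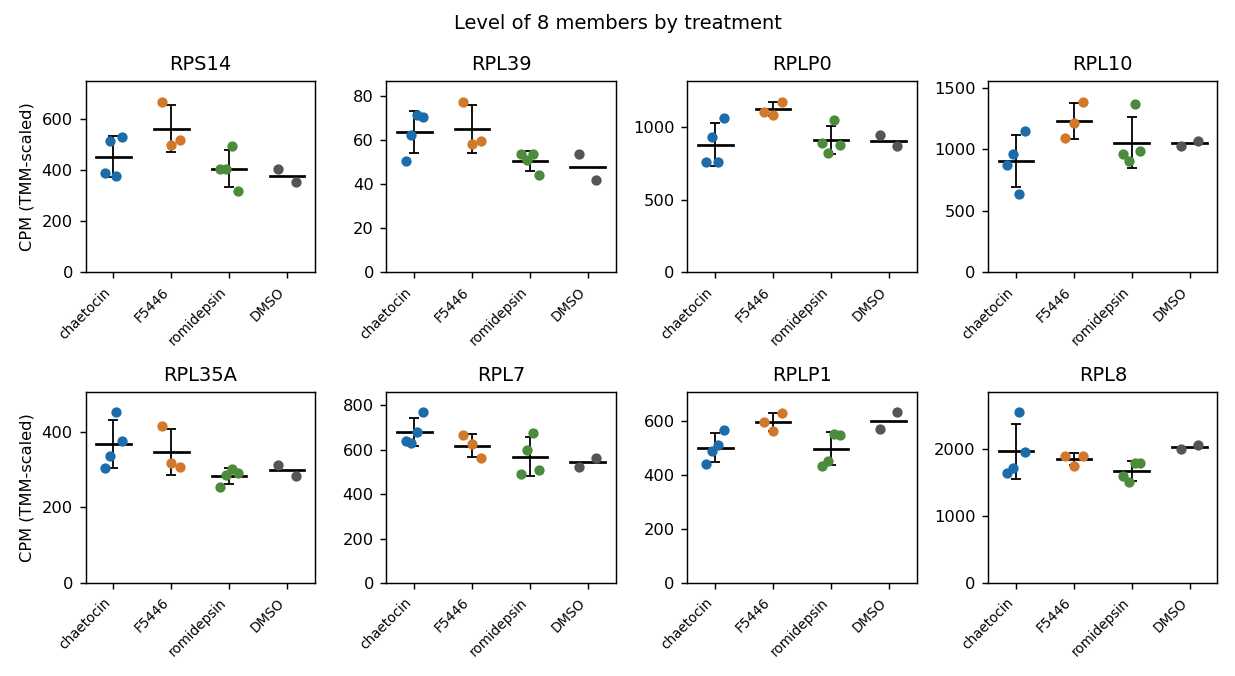
CPM of 8 ribosomal protein genes picked from those with the smallest p-values in the comparisons, 1 point per library. Bars give the group mean and, for groups of over 2 libraries, whiskers the SD. RPS14, RPLP0 and RPL10 have their highest mean with F5446, RPL39 has about equal means with chaetocin and F5446, and RPLP1 has similar means with F5446 and DMSO.

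The comparisons between compounds use no DMSO library. They share the libraries of each compound with one another and with the comparisons against DMSO, so these values are not independent either. Chaetocin against F5446, both at 10 nM, gave a median of 0.04 (-0.00 over all genes) and 44 of 76 above 0 (49.9% of all). The sign was not stable, with -0.09 without chaetocin replicate 3, -0.03 and -0.01 without F5446 replicates 3 and 4, -0.37 within replicate numbers 1 and 2 and 0.32 within 3 and 4. Without chaetocin replicates 1, 2 and 4 it was 0.14, 0.10 and 0.015, without F5446 replicate 2 it was 0.11, and with the replicate block 0.10. The smallest p-values belonged to genes that were lower with chaetocin. RPL10 was at 875, 962, 636 and 1152 CPM with chaetocin and at 1097, 1214 and 1390.3 CPM with F5446. The highest chaetocin library was above the lowest F5446 library, and the log2 fold change was -0.44 (SE 0.17, 95% CI -0.80 to -0.09, unadjusted p = 0.0167, edgeR adjusted p = 0.999). RPLP0 was at 759, 933, 757 and 1064 CPM with chaetocin and at 1106, 1083 and 1176 CPM with F5446, without overlap. Its log2 fold change was -0.35 (SE 0.14, 95% CI -0.64 to -0.07, unadjusted p = 0.0168, edgeR adjusted p = 0.999), and -0.39 within replicate numbers 1 and 2 and -0.33 within 3 and 4. RPS3A was the other gene whose chaetocin libraries all lay below those of F5446, so 2 of 76 did so (2.63%), beside 3.11% of all genes. In 0 genes did all lie above (2.28% of all). RPS14 was at 390.2, 514, 379 and 531 CPM with chaetocin, overlapping the F5446 libraries, and the log2 fold change was -0.32 (SE 0.16, 95% CI -0.64 to 0.01, unadjusted p = 0.0586, edgeR adjusted p = 0.999).

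Romidepsin at 1 µM against chaetocin at 10 nM gave a median of -0.17 (-0.01 over all genes), with 8 of 76 above 0 (48.8% of all). It was -0.02 within replicate numbers 1 and 2 and -0.28 within 3 and 4, and -0.06 without chaetocin replicate 3 and -0.11 without romidepsin replicate 1. Without chaetocin replicates 1 and 2 it was -0.26 and -0.22, without romidepsin replicate 3 -0.22, and with the replicate block -0.17. RPL35A, a large subunit protein mutated in some patients with Diamond-Blackfan anaemia, was at 254, 287, 302 and 289.8 CPM with romidepsin and at 304, 335, 452 and 377 CPM with chaetocin. All romidepsin libraries lay below all chaetocin libraries, by a small margin at the border, in this 1 of 76 genes (1.32%, beside 1.36% of all), and in 0 of 76 all lay above (2.24% of all). The log2 fold change was -0.37 (SE 0.13, 95% CI -0.65 to -0.10, unadjusted p = 0.00955, edgeR adjusted p = 0.671). RPL39 was at 53.7, 50.8, 53.4 and 44.1 CPM with romidepsin, and its log2 fold change was -0.33 (SE 0.14, 95% CI -0.63 to -0.04, unadjusted p = 0.0284, edgeR adjusted p = 0.886). RPL38, which in mice is needed for the translation of Hox messages, was at 577, 632, 674 and 639 CPM with romidepsin and at 642, 664, 932 and 858 CPM with chaetocin, and the log2 fold change was -0.30 (SE 0.13, 95% CI -0.56 to -0.03, unadjusted p = 0.0312, edgeR adjusted p = 0.9). Its groups overlapped, and its fold change was -0.11 within replicate numbers 1 and 2 and -0.45 within 3 and 4.

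Romidepsin at 1 µM against F5446 at 10 nM gave a median of -0.16 (-0.00 over all genes), with 12 of 76 above 0 (49.3% of all). It was -0.39 within replicate numbers 1 and 2, where F5446 has 1 library, and 0.03 within 3 and 4, and -0.03 without F5446 replicate 2. Without F5446 replicates 3 and 4 it was -0.20 each, without romidepsin replicate 3 -0.20, without romidepsin replicate 1 -0.11, and with the replicate block -0.12. In 6 of 76 genes (7.89%) all romidepsin libraries lay below all F5446 libraries, beside 2.1% of all genes, and these were RPLP0, RPLP1, RPL35A, RPL39, RPS14 and RPS19. In 0 of 76 all lay above (2.56% of all). RPS14 was at 405, 404, 498 and 321 CPM with romidepsin and at 670.5, 502 and 520.1 CPM with F5446. The highest romidepsin library, replicate 3, was just under the lowest F5446 library, and the log2 fold change was -0.47 (SE 0.16, 95% CI -0.80 to -0.14, unadjusted p = 0.00695, edgeR adjusted p = 1). It was -0.73 within replicate numbers 1 and 2 and -0.35 within 3 and 4. For RPL39 the log2 fold change was -0.36 (SE 0.15, 95% CI -0.68 to -0.05, unadjusted p = 0.0259, edgeR adjusted p = 1), and for RPLP0 it was -0.30 (SE 0.14, 95% CI -0.58 to -0.02, unadjusted p = 0.037, edgeR adjusted p = 1). Across all 4 groups, RPS14 (unadjusted p = 0.0182), RPL39 (0.0254) and RPL35A (0.0419) had the smallest p-values, each with an edgeR adjusted p of 1.

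Genes with roles outside the ribosome or in disease showed no called difference either. RPL5 and RPL11, which bind 5S ribosomal RNA and MDM2, were at 1979 ± 102 and 1676 ± 455 CPM with chaetocin, 2177 ± 177 and 1385 ± 211 CPM with F5446, 2057 ± 323 and 1389 ± 197 CPM with romidepsin and 1929.9 ± 254 and 1434 ± 263 CPM with DMSO. The errors are SDs over 4, 3, 4 and 2 libraries, here and in the next sentences. RPL11 spread widely with chaetocin, where replicate 3 was at 2298 CPM. RPS6, the substrate of the S6 kinases, was at 1147 ± 294 CPM with chaetocin, 1193 ± 174 with F5446, 1036 ± 88.1 with romidepsin and 1088 ± 15.4 with DMSO. RPL13A, which can silence inflammatory messages outside the ribosome, was at 1029.8 ± 149 CPM with chaetocin, 1089.6 ± 70.2 with F5446, 932 ± 144 with romidepsin and 963 ± 122 with DMSO. RPS3, which also acts in DNA repair, was at 1524 ± 292 CPM with chaetocin, 1531 ± 145 with F5446, 1407 ± 147 with romidepsin and 1415 ± 79.4 with DMSO. RPSA, also known as a laminin receptor, was at 624 ± 33.6 CPM with chaetocin, 699.9 ± 78.4 with F5446, 631 ± 106 with romidepsin and 582 ± 149.6 with DMSO. RPS27A, made as a fusion with ubiquitin, was at 539 ± 174 CPM with chaetocin, 511 ± 160.3 with F5446, 440.0 ± 79.5 with romidepsin and 456 ± 138 with DMSO. In each of these the group means differed by less than the range of the chaetocin libraries, except in RPL5 and RPSA, in which the F5446 mean was above every chaetocin library.

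Some genes were far steadier across the 13 libraries than others. The SD of log2 CPM was smallest for RPL10A (0.121), the protein of the L1 stalk, for RPL4 (0.138), RPL14 (0.141), RPL13 (0.149) and RPL5 (0.153). RPL10A ran from 243 to 314 CPM over all libraries. Among genes with over 50 CPM it was largest for RPS21 (0.459), RPL26 (0.395), which also binds the p53 message, and RPL31 (0.39). RPL26 ran from 49.4 CPM in romidepsin replicate 1 to 149.9 CPM in chaetocin replicate 3. RPS10 (0.933), RPL36A (0.905) and RPL17 (0.403) spread more widely at their low counts. Over the 73 genes above 50 CPM the median SD was 0.231, beside 0.184 for all 3877 genes of at least 50 CPM. The 44 with under 500 coding bases had a median SD of 0.257 and the 29 longer ones 0.195. Over the 73 genes, which share the same 13 libraries, SD and coding length had a Spearman's rho of -0.44, given as a description. Other protein-coding genes of at least 50 CPM had a median SD of 0.238 under 500 coding bases (324 genes) and 0.174 at 1500 coding bases or more (1968 genes), so short genes outside the list also spread more widely than long ones. Between the genes, the median pairwise correlation of log2 CPM was 0.61 over the same 13 libraries, with 88.7% of 2850 pairs above 0. Group means were not removed for it, and the same value was not taken for other genes. Shifts of whole libraries enter it, and their part was not tested.

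**Figure D5:**
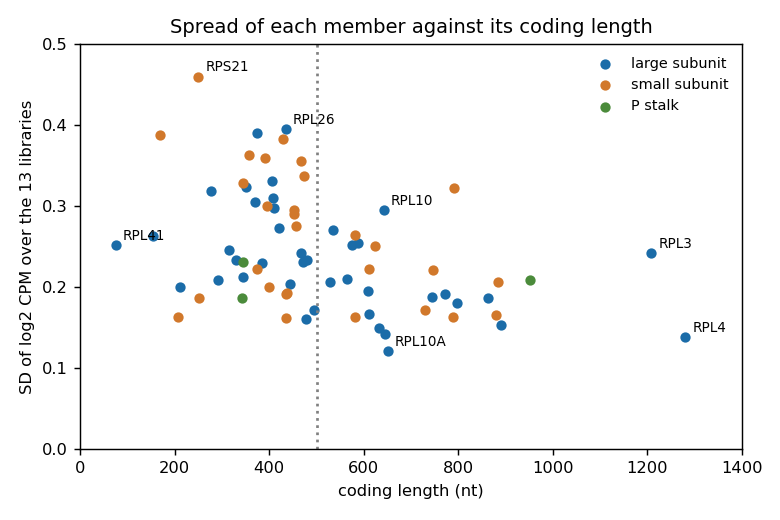
SD of log2 CPM over the 13 libraries (vertical axis) against coding length in nt (horizontal axis) for the 73 ribosomal protein genes over 50 CPM, coloured by subunit. The dotted line marks 500 nt. RPS21 has the widest spread at 0.459 and RPL10A the narrowest at 0.121, and genes left of the line have a median of 0.257 against 0.195 right of it.

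More genes were called between the libraries of replicate numbers 3 and 4 and those of 1 and 2 than in any treatment comparison. These counts are not on equal terms. The comparison of numbers sets 7 libraries against 6 with treatment in the fit. The treatment comparisons have 2 to 4 libraries a group and no term for the numbers. With such a term, the calls over all genes in romidepsin against chaetocin rose from 16 to 108, beside 2719 between the numbers. The labels do not say what a replicate number stands for. The sets were chosen because earlier results of these same data had shown that libraries part by replicate number. The p-values between the sets, here and below, are therefore not independent of that choice and describe these libraries. With treatment in the fit, 5 of 76 ribosomal protein genes were called (6.58%), beside 15.8% of all genes tested. All 5 were higher in numbers 3 and 4 (8.07% of all genes were called higher), and 0 were lower (7.69% of all genes). The median log2 difference of the 76 was 0.09, beside -0.03 over all genes, and 55 of 76 were above 0 (47.1% of all). This median moved with single libraries, to 0.02, 0.03 and 0.04 without chaetocin replicate 3, chaetocin replicate 1 and romidepsin replicate 1, and 0.19, 0.14 and 0.13 without F5446 replicate 2, DMSO replicate 4 and DMSO replicate 1. RPL22, which binds small viral RNAs and is needed for the development of αβ T cells in mice, had the smallest p. Its lowest, median and highest values were 83, 97.2 and 111 CPM in the 7 libraries of numbers 3 and 4, against 67.2, 74.8 and 80.9 CPM in the 6 of numbers 1 and 2. The sets did not overlap, and the log2 difference was 0.38 (SE 0.08, 95% CI 0.21 to 0.54, edgeR adjusted p = 0.00133). RPS2, at the entry of the messenger RNA channel, was at 1053, 1166 and 1268 CPM in numbers 3 and 4, against 901, 944 and 1037 CPM in 1 and 2. Its sets did not overlap either, which was so for 2 of 76 genes upward (3.23% of all genes) and 0 of 76 downward (2.25% of all), and the log2 difference was 0.27 (SE 0.07, 95% CI 0.12 to 0.41, edgeR adjusted p = 0.00787). RPL28 was at 1859, 1971 and 3354 CPM against 1486, 1778 and 1896 CPM, RPLP2 at 888, 1060.0 and 1294 CPM against 721, 887 and 1058 CPM and RPS4X at 2275, 2473 and 2737 CPM against 1845, 2146 and 2334 CPM. These 3 overlapped between the sets, with log2 differences of 0.37 (SE 0.11, 95% CI 0.14 to 0.61, edgeR adjusted p = 0.0302), 0.26 (SE 0.09, 95% CI 0.09 to 0.44, edgeR adjusted p = 0.0312) and 0.23 (SE 0.08, 95% CI 0.07 to 0.39, edgeR adjusted p = 0.0419). RPL3, next to the peptidyl transferase centre, came out at 0.24 (SE 0.09, 95% CI 0.06 to 0.42, edgeR adjusted p = 0.0624) and was not called. DESeq2 called 6 of the 76, which were RPL22, RPS2, RPLP2 and RPS4X, with RPL3 (DESeq2 adjusted p = 0.0495) and RPLP1 (0.0318) added and RPL28 not among them, and limma-voom called 5. By edgeR the count was 2 without chaetocin replicate 1 or without romidepsin replicate 1, 3 without chaetocin replicate 2 or 4, and 11 without F5446 replicate 2. Other measures moved with the sets. Apart from chaetocin replicate 3 (15.4%), the mitochondrial share was 5.03 to 8.64% in numbers 3 and 4, against 8.49 to 12.4% in 1 and 2, so the sets barely overlapped. The 5 B cell markers summed to 61.9 to 93.0 CPM in numbers 3 and 4, against 40.7 to 63.2 CPM in 1 and 2. Of these, not all were higher in numbers 3 and 4. A listed marker not named here had a median of 11.1 CPM there, against 16.3 CPM in 1 and 2. CD79B overlapped between the sets, with medians of 6.42 CPM in numbers 3 and 4 and 3.73 CPM in 1 and 2. CD79A, a part of the B cell receptor, did not overlap, with 46.2 to 78.0 CPM against 26.3 to 38.3 CPM, while PAX5 was under 1 CPM in every library. The summed T cell markers did not overlap either, at 1239 to 1484 CPM in numbers 3 and 4 and 941 to 1229 CPM in 1 and 2. Single T cell markers did not all follow this sum. CD3G overlapped between the sets, with 90.7 to 133 CPM in numbers 3 and 4 against 110 to 132 CPM in 1 and 2. CD2 did so too, with 5.89 to 11.4 CPM against 4.78 to 11.7 CPM. The part of these measures in the differences was not tested.

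The other genes of ribosome production, taken from lists written from general knowledge, gave 0 calls in the 6 treatment comparisons. For messages with a TOP start other than the 77, among them elongation factors and FAU, which encodes a ribosomal protein fused to a ubiquitin-like protein, 25 genes were tested. Their median log2 fold change was 0.07 in chaetocin, 0.05 in F5446 and -0.01 in romidepsin against DMSO, and -0.08 in romidepsin against chaetocin. The counts that follow are of genes called between replicate numbers, where 8.07% of all genes tested were called higher in 3 and 4 and 7.69% lower. Of the 25 genes 5 were called, all higher in 3 and 4, namely PABPC1 (0.33), the poly(A) binding protein, IPO7 (0.26), EIF3L (0.30), EIF3F (0.22) and VIM (0.25). Of 20 genes of RNA polymerase I transcription, 1 was called higher in numbers 3 and 4, POLR1D (0.37), and 5 lower, CD3EAP (-0.60), POLR1A (-0.38), POLR1B (-0.39), POLR1C (-0.49) and UBTF (-0.28). Of 7 genes of the 5S particle and p53 response, MDM4 (0.31), which restrains p53, was called higher. In the same list RRS1 and RPF2, which bring RPL5, RPL11 and 5S ribosomal RNA into the large subunit precursor, were called lower (-0.62 and -0.37), as was HEATR3 (-0.58), which carries RPL5 into the nucleus. Of the 18 chaperones and importers of ribosomal proteins 5 were called lower, namely GRWD1 (-0.51), the chaperone of RPL3, RRP7A (-0.40), PDCD2 (-0.28), LTV1 (-0.28) and HEATR3. IPO7 and NOB1 (0.21), which cuts the small subunit RNA at its end, were called higher. Of 23 TOP and mTORC1 regulators 3 were called lower (LARP4, MAX and RPS6KB2), of 14 quality control factors 1 higher (HBS1L), and of 12 snoRNA host genes 1 higher (SNHG3) and 1 lower (SNHG7). RPL22 was called higher, while its paralog RPL22L1 (-0.50) and the RPL7 paralog RPL7L1 (-0.31), both outside the symbol rule, were called lower. Of 76 mitochondrial ribosomal protein genes 0 were called higher and 15 lower, and the difference between this list and the cytosolic genes was not tested. These 15 ran from MRPL1 (-1.53) to MRPS23 (-0.29), with MRPL3, MRPL12, MRPL15, MRPL20, MRPL27, MRPL32, MRPL35, MRPL47, MRPL49, MRPS10, MRPS11, MRPS16 and MRPS25 between them. Of 13 mitochondrially encoded proteins 0 were called, 2 had an unadjusted p under 0.05, and their median was -0.51 between the sets of replicate numbers.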

How the data were processed

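The authors deposited raw counts per gene, whole numbers for 45744 genes in 13 libraries, and every sample column was used. The submitters' processing notes name bcl2fastq (2.20.0.422), cutadapt (1.8.1), HTSeq (0.6.1) and the build hg19. The aligner, strandedness and annotation version were not given in the sources used here. Overlapping and antisense genes can therefore not be separated. The library kit named in the labels is made for RNA that may be degraded. Titles gave the groups. The treatment tags of the F5446 libraries differ in their last digit while all their titles read F5446.

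Genes were filtered by filterByExpr of edgeR 4.0.16 in R 4.3.3, scaled by TMM and fitted over all 13 libraries with group as the only term. The robust quasi-likelihood test was two-sided, with Benjamini-Hochberg adjustment over all 17252 genes in each comparison and a threshold of 0.05. The comparison of replicate numbers used group plus the set of numbers. CPM are TMM-scaled, and log2 CPM used a prior count of 2. Coding length is that of the longest principal coding transcript in GENCODE 29, matched by gene ID. Start sequences come from RefSeq (GRCh38.p14). The script was checked on simulated counts with 200 changed genes. Intervals are at 95%. Matplotlib 3.10.9 (Python 3.11.15) drew the figures.

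The members and lists were chosen with earlier results of these data known. Named genes are the 10 most abundant, the 3 with the smallest p in each comparison, the 5 steadiest and 5 most variable, and a set picked for their roles. Some of the genes that this rule gives, and some listed markers, are not reported here. Of the other lists, called members were named; the rule also gave the 2 smallest p-values where none was called, which are left out for length. RPL7A, RPL15, RPL31, RPS3A and RPL6, outside this rule, were named after their values were seen. Same-numbered libraries deviated from their group means together over genes of at least 10 CPM. The correlations were 0.19 to 0.45 over 3 pairs (chaetocin and F5446), 0.26 to 0.72 over 4 (romidepsin and chaetocin) and 0.27 to 0.40 over 3 (romidepsin and F5446). Libraries of different numbers are not in this check. It therefore cannot tell pairing by single numbers from the split of 1 and 2 against 3 and 4. The labels do not say what a number marks. Alternatives were DESeq2 1.42.0, limma-voom (limma 3.58.1), other scalings and filters, a non-robust fit, fits of the 2 groups compared, a replicate block, a set term and each library left out in turn.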

Additional observations from a re-analysis of the deposited data

Results flagged for a closer look

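A sample far from the others was sought in 82 groups of libraries, and 3 groups were flagged. Chance gives about 1 in 20, and 3 of 82 is not more than that. All 3 were flagged for the same library. In romidepsin replicate 3, RPL10A was at 293 CPM where the other romidepsin libraries were at 252.1 to 252.5 CPM, a gap of 0.991 of the group's range. RPL4 was at 2134 CPM in the same library against 1595 to 1623 CPM in the others (gap 0.949), and RPL3 at 947 CPM against 603 to 652 CPM (gap 0.857).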

How the results depend on the processing

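In the 6 treatment comparisons and the test of any difference, the count of called ribosomal protein genes was 0 under every alternative run. The count between replicate numbers, 5, was 3 with library totals only and 9 with no filter, and it ran from 2 to 11 when single libraries were left out. RPL22 was called under each alternative run, whereas RPS2, RPL28, RPLP2 and RPS4X each missed the threshold under at least 1, with the same direction. Leaving all mitochondrially encoded genes, protein-coding or not, out of the total raises the share of counts in every group. The rise was over the group's SD with romidepsin (to 7.42%) and DMSO (to 7.60%), whose SDs are smaller than those of chaetocin and F5446. The medians moved within replicate numbers 1 and 2 and within 3 and 4, a division added after seeing the data. They were -0.19 and 0.42 for chaetocin and -0.20 and 0.15 for romidepsin against DMSO, -0.37 and 0.32 for chaetocin against F5446, and -0.39 and 0.029 for romidepsin against F5446, and the cause was not tested. The replicate block changed no call of a ribosomal protein gene. It gave medians of 0.02, -0.06 and -0.12 for chaetocin, F5446 and romidepsin against DMSO. The medians were 0.10, -0.17 and -0.12 for chaetocin against F5446, romidepsin against chaetocin and romidepsin against F5446. Over all genes the block took the calls from 16 to 144 in romidepsin against chaetocin and from 0 to 10 in chaetocin against DMSO. They stayed at 0 in F5446 against DMSO. The shares of all genes called, given above for the treatments, are from the fit without the block. Against DMSO the numbers pair only 2, 1 and 2 libraries (correlations 0.31 to 0.55), so they share a number and no known source. Fits without a DMSO library assume that the other varies like the rest. With 2 to 4 libraries a treatment, the number of libraries limits the precision.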
